A study of Aspergillus nidulans with 2 samples.

Results

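The genes described here are hmg1 and idi1 of isoprenoid and sterol synthesis, faa4 of fatty acid activation and pld2 of phospholipid turnover in the filamentous fungus Aspergillus nidulans (Emericella nidulans). They were taken by symbol from the platform annotation, which assigns 7 of the 3533 probes of the array to these 4 of 2064 named genes. Product descriptions and protein sequences were not used here, so the roles given below are those of the genes' symbols and are background. The genes are hmg1 (ANIA_03817, 1 probe), idi1 (ANIA_00579, 2 probes), faa4 (ANIA_06014, 3 probes) and pld2 (ANIA_07334, 1 probe).

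The menadione group was mycelium of strain FGSC 26 grown for 18 h at 37 °C in a minimal-nitrate medium (pH 6.5) that held 0.5% yeast extract, filtered, moved to fresh minimal-nitrate medium, and kept there for 6 h with menadione at 0.8 mM, given as its sodium bisulfite addition compound. The untreated group had the same strain, growth, filtration and transfer, without menadione. Menadione is a quinone that undergoes redox cycling in cells and produces superoxide. Total RNA of both was hybridised together on 2-colour cDNA arrays, with menadione RNA in Cy5 on the flip array and in Cy3 on the flop array. These 2 arrays are all the samples, which limits how precise any value can be. Nothing in the labels says that they carried separate cultures, so every SD and p-value covers only the spread of 2 arrays and may be technical.

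Sterols of fungi are made from mevalonate. HMG-CoA reductase forms mevalonate in the step that commonly limits the pathway, and isopentenyl diphosphate isomerase, further down, makes the starter unit from which isoprenoid chains grow. Ergosterol, the main sterol of most fungal membranes, ubiquinone, dolichol and the prenyl groups of proteins all derive from that supply. Long-chain acyl-CoA synthetases, the family of yeast Faa4, attach coenzyme A to fatty acids so that these can enter lipids or be oxidised. Phospholipase D cuts phosphatidylcholine into phosphatidic acid and choline.

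Each deposited value was read as log2 of menadione over untreated, which is an assumption, since neither the base of the logarithm nor the direction of the ratio is stated. If the ratios run the other way on both arrays, higher and lower change places throughout. The columns correlated with a Pearson r of 0.844 across the 2265 probes measured on both arrays, which does not settle the direction. RNA came from whole mycelium, so fewer cells of a kind and less transcript per cell cannot be told apart. All 7 probes of the 4 genes had a flip value and 5 had a flop value. The other 2 belonged with the 784 probes of the array (22.2%) that were measured on the flip array alone. The flop array was wider (SD over all its values 1.16) than the flip array (SD 0.965).

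hmg1 was the single gene of the 4 that passed the test, and it was lower with menadione on both arrays, whereas idi1 of the same pathway had positive ratios of smaller size. faa4 and pld2 had negative means and did not pass. Of the 5 probes measured on both arrays, 1 passed an adjusted p of 0.05 by limma, the probe of hmg1. Over all probes 24.6% passed (12.4% lower and 12.2% higher with menadione), so 1 of 5 is near the background. The same probe was the only one of the 5 at least 2-fold in 1 direction on both arrays, a size that 18.2% of all probes reached (9.36% lower and 8.83% higher with menadione). Of the 5 probes 4 had negative means, as did 48.3% of all probes, and the median of the 5 was -0.48 on the log2 scale, against 0.04 over all 2265 probes.

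**Figure D1:**
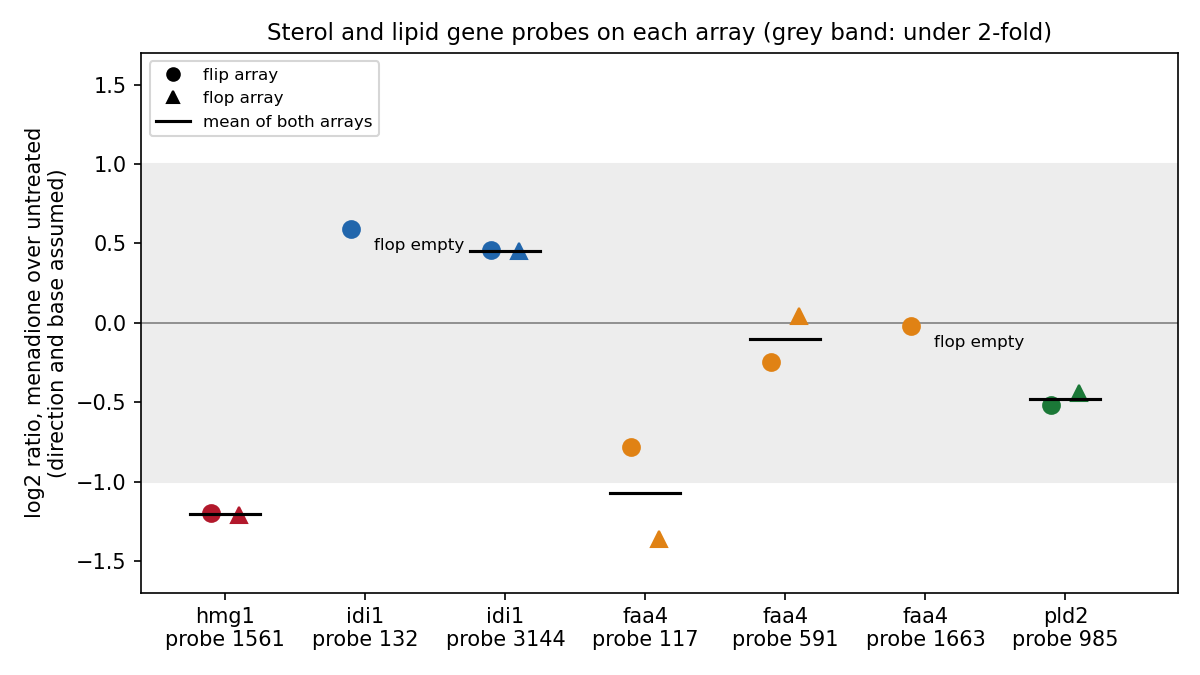
Log2 ratio of menadione over untreated (vertical axis) for each of the 7 probes of hmg1, idi1, faa4 and pld2 (horizontal axis), with circles for the flip array, triangles for the flop array, bars for the mean of both, and a grey band for ratios under 2-fold. The hmg1 probe lies below the band on both arrays, faa4 probe 117 on the flop array alone, and 2 probes have no flop value.

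hmg1, the HMG-CoA reductase gene, had log2 ratios of -1.20 (flip array) and -1.21 (flop array). Both ratios were on the same side of 0, and 9.48% of all flip values and 10.1% of all flop values were lower still. The mean was -1.21 ± 0.0071 (SD, n = 2), a level 2.31-fold lower with menadione, with a 95% limma interval from -1.60 to -0.81 on the log2 scale. By limma over the 1455 gene means, hmg1 passed with an adjusted p of 0.0430, as did 19.0% of genes (9.48% lower and 9.55% higher). It was not extreme among them: 17.6% of genes had a mean farther from 0, and 139 of 1455 genes had a lower one, which puts hmg1 at rank 140 from the lowest.

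The closeness of the hmg1 arrays is no measure of its precision. Of the 2265 probes, 76 (3.36%) differed by at most 0.01 between the arrays, and the median SD over all probes was 0.198. Without moderation, which shares the variance across genes, the same mean had an adjusted p of 0.279, and 0 of 1455 genes passed by the ordinary one-sample statistic (245 at an unadjusted p under 0.05). The call was lost in the adjustment over all genes: before adjustment the p of hmg1 was 0.00264 without moderation and 0.00303 by limma. With genes measured on at least 1 array added to the limma fit, hmg1 had an adjusted p of 0.0695. With the sign of the flop array turned, the reading in which both columns are red over green, the mean of hmg1 was 0.005.

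idi1, the isopentenyl diphosphate isomerase gene, was at 0.46 (flip) and 0.45 (flop) with probe 3144. Both ratios were positive and well under 2-fold. Its mean of 0.46 ± 0.0071 (SD, n = 2) is a 1.37-fold higher level with menadione, with a 95% limma interval from 0.06 to 0.85. It did not pass over all genes (limma adjusted p = 0.0945), and 52.4% of genes had a mean farther from 0. The other idi1 probe, 132, was at 0.59 on the flip array and has no flop value. On the array that measured both, the probes of idi1 thus had ratios of the same sign.

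Within each array the ratios of the 2 isoprenoid genes differed. The log2 ratio of idi1 exceeded that of hmg1 by 1.66 (flip) and by 1.66 (flop), a 3.16-fold difference between the 2 ratios. Centring an array leaves this difference as it is, and turning the sign of the flop array makes it -1.66 there. The difference was not tested, and how often any 2 genes of the array lie that far apart was not counted. The values of all probes had an SD of 0.965 (flip) and 1.16 (flop). An exact two-sided permutation test over 2 arrays cannot give a p below 0.5.

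faa4, the long-chain acyl-CoA synthetase gene, was measured with 3 probes that did not give 1 answer. Probe 117 was at -0.78 (flip) and -1.36 (flop). Probe 591 was at -0.25 (flip) and 0.04 (flop). Probe 1663 had only its flip value, -0.02. The first was negative on both arrays and more than 2-fold lower on the flop array alone, the second had opposite signs on the arrays, and the third was near 0. The mean of probe 117 was -1.07 ± 0.41 (SD, n = 2), 2.10-fold lower with menadione (limma adjusted p = 0.0582 over all probes), and that of probe 591 was -0.105 ± 0.21 (adjusted p = 0.628).

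Probe 117 minus probe 591 was -0.53 in flip and -1.40 in flop. Such a gap between probes of 1 gene was common on this array: of 246 genes with 2 probes measured on both arrays, 104 (42.3%) had means at least as far apart as the 0.965 of faa4. The gene mean of faa4 over the probes with both values, -0.59 ± 0.10 (SD, n = 2; limma adjusted p = 0.0741), averages these 2 probes. Its 95% limma interval ran from -1.01 to -0.16. With both arrays scaled to a common spread the gene mean was at -0.58 and passed, at a limma adjusted p of 0.0498, as 35.0% of all genes did under that scaling. Probe 117 passed in the fit of probes after centring (limma adjusted p = 0.0446, where 29.8% of all probes passed) and with a common spread (adjusted p = 0.0149, where 38.8% did).

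pld2, the phospholipase D gene, was at -0.52 (flip) and -0.44 (flop). Both ratios were negative and under 2-fold. The mean was -0.48 ± 0.06 (SD, n = 2), a level 1.39-fold lower with menadione, with a 95% limma interval from -0.89 to -0.07. It did not pass over all genes (limma adjusted p = 0.0898). Of all genes, 50.2% had a mean farther from 0.

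**Figure D2:**
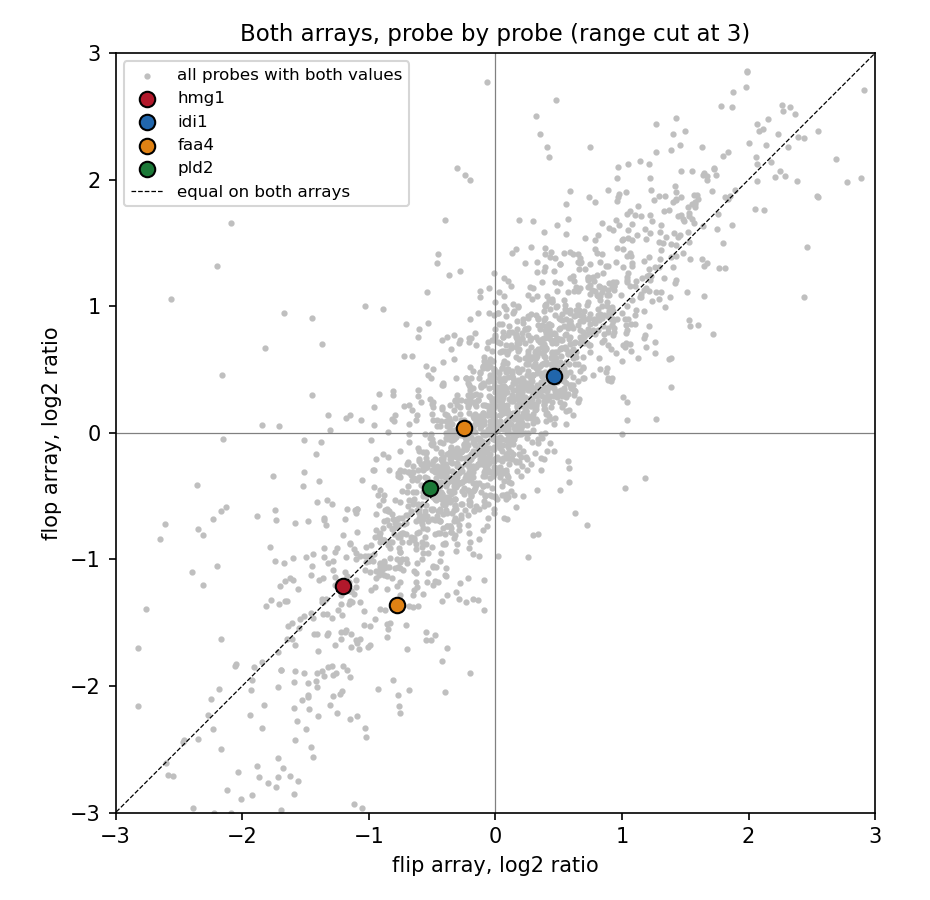
Log2 ratio on the flop array (vertical axis) against the flip array (horizontal axis), with 1 grey point for each probe measured on both and coloured points for the probes of the 4 genes. The axes end at 3 and leave out 66 probes. hmg1, idi1 and pld2 lie close to the line of equal values, inside the cloud of other probes, and the faa4 probes lie on opposite sides of it.

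In order of the gene means, hmg1 was lowest, then faa4 and pld2, with idi1 highest. faa4 and pld2 are neighbours that did not separate beyond their spread: faa4 minus pld2 was 0.01 (flip) and -0.22 (flop), with a mean of -0.11 ± 0.16 (SD, n = 2). The gene value of hmg1 was below that of faa4, and that of idi1 above that of pld2, on each array, although the single faa4 probe 117 was below hmg1 on the flop array. Each of the 4 gene means had an unadjusted limma p under 0.05, which 43.8% of all genes had. After centring, 3 of the 4 did by limma, as did 689 of 1455 genes. Without moderation, 2 of the 4 did by the ordinary one-sample statistic, as did 245 of 1455 genes.

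The rest of the pathway was read from a list of sterol, fatty acid, phospholipid, sphingolipid and peroxisome symbols. Of the listed symbols, 14 are on the array, or 13 without hmgA, which matched the list but is no sterol gene. Values on both arrays were present for 8, the 4 genes included and hmgA not among them. By limma over all genes 1 of 8 was lower (hmg1) and 0 were higher, against a background of 19.0% for either direction. At an unadjusted limma p under 0.05, 4 were lower and 3 higher, where 307 of all 1455 genes were lower and 331 higher (43.8% in either direction). The median of the 8 gene means was -0.49 on the log2 scale, against 0.03 over the 1455 genes, and 5 of the 8 had negative means. The 4 genes of the list besides hmg1, idi1, faa4 and pld2 had a median of 0.07. Their means were negative for pex8 (-0.515) and lcbA (-0.495) and positive for pex7 (0.785) and dapB (0.63). The place of dapB in the list is not established, and every count and median of the list here includes it. Only genes with a symbol could be counted, and lipid genes known by a locus tag alone are not in these counts.

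Among those other genes the peroxisomal ones differed in sign. pex7, whose product in yeast carries a class of enzymes into peroxisomes, where fatty acids are oxidised, was at 0.91 (flip) and 0.66 (flop), with a limma adjusted p of 0.0594. pex8, which in yeast acts in the same import, was at -0.33 and -0.70 on these arrays (adjusted p = 0.122). The sphingolipid gene lcbA, for serine palmitoyltransferase, the first step of sphingolipid synthesis, was at -0.62 (flip) and -0.37 (flop), with an adjusted p of 0.107. None of these passed over all genes. With a common spread of the arrays, 4 of the 8 listed genes passed by limma: hmg1 and faa4 lower, pex7 and dapB higher. Under that scaling 509 of 1455 genes (35.0%) passed.

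Later steps of ergosterol synthesis were measured on the flip array alone, with no test. erg4, the gene of the last reductase of the pathway in yeast, was at 0.69, and erg5, the C-22 desaturase gene, at -0.11. Both ratios were under 2-fold. On the same array the peroxisomal gene pex14 was at -0.78, lcb2, the gene of another subunit of serine palmitoyltransferase in yeast, at 0.78, and cds1 at -0.11. The symbol cds1 names a phospholipid enzyme in budding yeast and a checkpoint kinase in fission yeast, so its place in the list is not established. That of dapB is not established either. Its probes were at -1.12 and 1.28 on the flip array alone, at 0.53 and 0.73 on the flip and flop arrays for the probe measured on both (adjusted p = 0.0720 by limma over gene means), and the remaining one was empty. The listed symbol hmgA, at -0.06 on the flip array, names homogentisate dioxygenase of phenylalanine breakdown in A. nidulans and is no sterol gene.

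**Figure D3:**
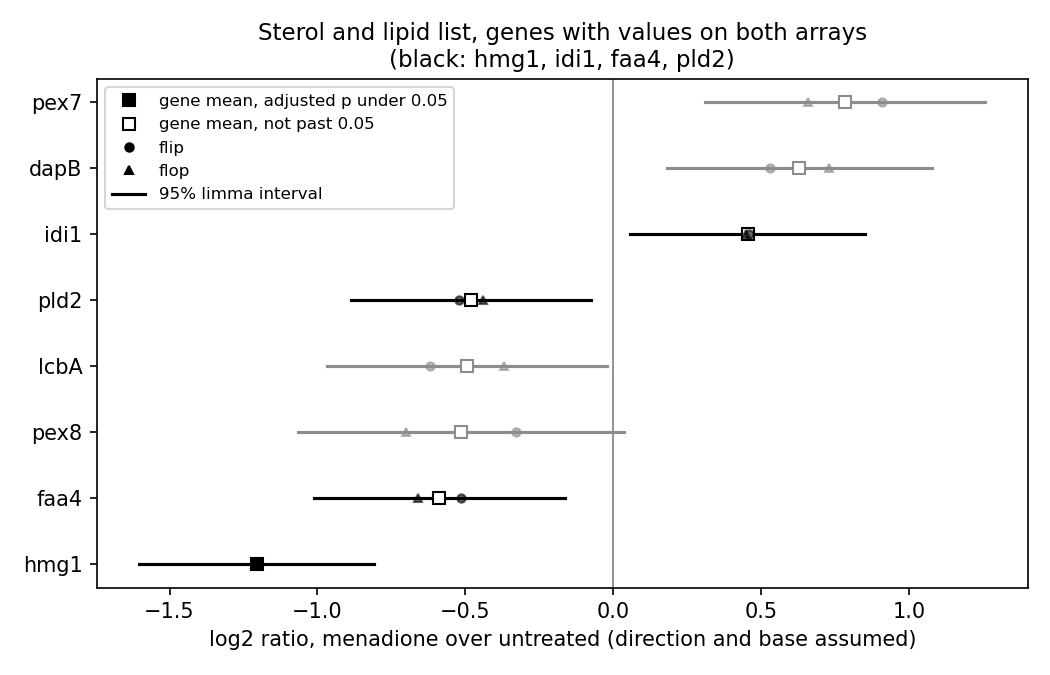
Gene means of the log2 ratio (horizontal axis) for the 8 listed genes with values on both arrays (vertical axis), with circles for flip, triangles for flop, lines for 95% limma intervals that are not adjusted for the number of genes, and black for hmg1, idi1, faa4 and pld2. The filled square of hmg1 is the only mean past an adjusted p of 0.05, and the other 7 lie between -0.59 and 0.79.

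With a single comparison, likeness to other genes can be stated only as nearness over 2 arrays. Among the other 212 genes with a symbol, the nearest to hmg1 by Euclidean distance were phzA (distance 0.11), S10a (0.17) and the actin gene act1 (0.18). Those nearest to idi1 were gcy1 (0.05), gup1 (0.07) and the aconitase gene acoA (0.08). faa4 was nearest to the nitrite reductase gene niiA (0.06), aspf8 (0.06) and nudF (0.08). pld2 was nearest to rasB (0.07), lcbA (0.12) and hsp90 (0.14). Between 4 (hmg1) and 13 (idi1) genes lay within a distance of 0.2 of each of the 4.

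Genes next to the 4 on the chromosomes, in the RefSeq order of assembly ASM1142v1, were mostly not on the array. Of the 16 genes that lie 1 or 2 places away, 2 had a probe. ANIA_06016, near faa4, was at -0.09 (flip) and 0.01 (flop). ANIA_07335, near pld2, was at 0.46 and 0.67 (flip) and at 0.29 and 1.14 (flop) with its 2 probes, opposite in sign to pld2, and neither probe passed (limma adjusted p = 0.147 and 0.0623). No such neighbour of hmg1 or idi1 had a probe.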

How the data were processed

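Ratios of menadione RNA and untreated RNA were measured on 2 two-colour cDNA arrays of 3533 expressed sequence tags. Per the labels' protocols and the design text of the series, they were scanned by the authors with a GenePix 4000B scanner, with ratios from GenePix Pro 3.0 normalized by LOESS within print blocks in SAS for Windows version 8. The deposited values were taken as log2 ratios, since they have both signs and medians of 0.01 (flip) and 0.10 (flop). The sources used here give no base, direction, background correction or reason for empty cells. Intensities were not used, so signal over background is unknown.

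The values were tested as deposited against 0 with limma 3.58.1 (R 4.3.3; lmFit, eBayes, Benjamini-Hochberg over all features, threshold 0.05), over 2265 probes with both values and over 1455 gene means of such probes. Prior degrees of freedom were 1.95 (probes) and 1.70 (genes). Probe names came from the platform annotation, and the Entrez IDs of all 2779 named probes (2064 genes) matched RefSeq assembly ASM1142v1. All 4 genes were named, with up to 6 others of the list by size and the 3 nearest genes of each. Members and lists were chosen with earlier results of these data known, and the chromosomal neighbours after the values were seen. Alternatives were centring, common spread, robust or no moderation, the flop sign turned, probes with 1 value, single probes, thresholds, log base and each array alone.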

Additional observations from a re-analysis of the deposited data

How the results depend on the processing

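hmg1 (-1.21, limma adjusted p = 0.0430) passed after centring, with a common spread, under robust moderation and as a single probe (adjusted p from 0.0149 to 0.0450). It did not pass without moderation (-1.21, adjusted p = 0.279) or with genes measured on at least 1 array (-1.21, adjusted p = 0.0695), where 0 of 1843 genes passed by limma (666 had an unadjusted p under 0.05). With the sign of the flop array turned, which affects every gene, hmg1 was at 0.005 and faa4 at 0.0725, both close to 0, and 0 genes passed (1 unadjusted by limma). faa4 passed with a common spread (-0.58, limma adjusted p = 0.0498). idi1 and pld2 passed 0.05 under no setting, and in the main fit their limma adjusted p was under 0.10 (0.0945 and 0.0898). The 1 probe of the 4 genes past the threshold became 2 after centring or with a common spread (hmg1 and faa4 probe 117), 3 at an adjusted p under 0.10, and 0 without moderation (2 unadjusted) or with the flop sign turned (0 unadjusted). Over all probes 557 passed, against 674 after centring, 878 with a common spread, 951 at 0.10 and 305 with probes on at least 1 array. Over all genes 277 passed, against 444 after centring, 509 with a common spread and 584 at 0.10. The 1 gene of the list became 4 with a common spread, 6 at 0.10, and 0 without moderation, with the flop sign turned or with genes on at least 1 array (2, 0 and 5 unadjusted in that order). The count of 1 probe past 2-fold in both arrays became 2 at 1.5-fold or as natural logarithms, 0 at 3-fold, 0 with the flop sign turned, and 1 to 2 on a single array. Over all probes that count was 412, and became 785 at 1.5-fold, 663 as natural logarithms, 157 at 3-fold, 4 with the flop sign turned, and 671 to 708 on a single array. On 1 array alone, gene values over the probes with values on both arrays were read with no test. They ran from -1.21 to -1.20 (hmg1), 0.45 to 0.46 (idi1), -0.66 to -0.52 (faa4) and -0.52 to -0.44 (pld2). These ranges leave out the probes measured on the flip array alone, idi1 probe 132 (0.59) and faa4 probe 1663 (-0.02). As natural logarithms, hmg1 would be 3.34-fold lower. Each ratio already pairs menadione and untreated RNA on 1 array, and both arrays form 1 group, so there was no further block to fit.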

Other observations

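Other genes with lipid-related symbols outside the list, chosen after their values were seen, were read in the same way. Of 6 such genes, 3 were measured on both arrays, with 4 probes, of which 0 passed by limma (and 0 had an unadjusted p under 0.05). Over all 2265 probes 557 passed and 1035 had an unadjusted p under 0.05. gup1, which in yeast encodes a membrane-bound O-acyltransferase, was at 0.43 (flip) and 0.39 (flop), with a limma adjusted p of 0.118 over probes. The 2 probes of nte1, whose yeast counterpart is a phospholipase of phosphatidylcholine turnover, were at 0.05 and -0.12 (flip) and at 0.65 and 0.47 (flop). The peroxin gene pex26 was at -0.10 (flip) and -0.77 (flop). On the flip array alone, the probes of atg26, the gene of a sterol glucosyltransferase in yeast, were at 0.39 and 1.29, las21, which acts on membrane anchors of proteins in yeast, was at 1.53, and pmp47, a peroxisomal membrane protein gene, was at 0.98. None of these flip-only values could be set against a second array.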
